A study of Mus musculus with 2 samples.

Results

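Genomic imprinting silences a gene on the copy from 1 given parent, and most imprinted genes lie in clusters that share an imprinting control region. DNA methylation set in the egg or in the sperm marks such a region, and long noncoding RNAs made from some clusters silence their neighbours in cis. Many products of these genes act on growth, on the placenta and on the brain, with paternally expressed genes such as Igf2 often promoting growth and maternally expressed genes such as Cdkn1c and Igf2r often restraining it. The genes described here are 40 imprinted genes that lie outside the chromosomes duplicated in these mice. They were chosen by name as members of 7 known clusters (Igf2-H19-Kcnq1, Dlk1-Meg3, Peg3, Snrpn-Ube3a, Mest, Peg10-Sgce and Igf2r) or as imprinted genes that stand alone (Plagl1, Grb10, Impact and Slc38a4). Of the 40, 19 are listed here as expressed from the paternal copy and 20 from the maternal copy, and Grb10 changes its expressed copy with the tissue. These classes need not hold in every tissue, as for Ube3a below. Which copy was expressed in the heads was not measured, so a class may hold genes expressed from both copies there. A probe set with a single gene symbol was found for 37 of them, among 18193 genes on the arrays, and for none of H19, Rtl1 and Dio3.

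RNA of the whole head of newborn mice was hybridised to 2 Affymetrix arrays, 1 array for each of 2 genotypes, and the study asked which transcripts differ between these. Both kinds of offspring came from carriers of T(2:9)11H, a translocation that exchanges the distal parts of Chr 2 and Chr 9. MatDp(dist2), which equals PatDp(dist9), had 2 maternal copies and no paternal copy of distal Chr 2, and only paternal copies of distal Chr 9. PatDp(dist2), which equals MatDp(dist9), had the reverse. No member gene lies on Chr 2 or Chr 9. The members lie on 8 other chromosomes, with 20 on Chr 7, 8 on Chr 6, 6 on Chr 12, 2 on Chr 17 and 1 each on Chr 10, 11, 15 and 18. The labels name no duplication of these chromosomes. The sources used here do not give the number or sex of the animals, or whether they were pooled, and "head" stands here for the sample on 1 array.

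Each probe set has 1 MAS5 signal per head, an intensity on a linear scale, and log2 ratios are given as MatDp(dist2) over PatDp(dist2), positive where MatDp(dist2) was higher. A signal under a floor of 187.05 was raised to that floor, so a ratio with 1 head under the floor is a bound. A gene or probe set is called measured where at least 1 head reached the floor. With 1 array per genotype no spread between replicates and no test exist, and precision is limited by having 1 array each. Median signals over all probe sets were 201 in MatDp(dist2) and 173 in PatDp(dist2). The floor was reached by 51.6% and 48.3% of probe sets. Nnat, a paternally expressed gene of distal Chr 2 that checks the labels, had 43.1 in MatDp(dist2) and 3927 in PatDp(dist2). The heads also differed in tissue markers. All 6 lens genes lay under the floor in PatDp(dist2), and their summed signal was 24178 in MatDp(dist2) against 223. Summed signals of 10 neuron markers were 33385 and 17706, of 6 epidermis markers 44837 and 6222, and of 6 fat markers 28877 and 68862. In such bulk tissue, fewer cells of a type and less RNA per cell cannot be told apart.

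The sequences of 4 start regions are shown first, because 3 of them hold a hexamer tied to the upkeep of imprints and the other lies between neighbours whose ratios differed. ZFP57, a zinc finger protein that keeps imprints after fertilisation, binds the methylated hexamer TGCCGC, which reads GCGGCA on the opposite strand. Sequences come from RefSeq on the build GRCm38.p6. They run 5′ to 3′ on the plus strand, with each hexamer of either strand in capitals. The Mest, Plagl1 and Meg3 stretches are the 250 bases before a start on the plus strand, at chr6:30737800-30738049, chr10:13090582-13090831 and chr12:109540746-109540995. The stretch for Peg3 and Usp29 is the 163 bases between their divergent starts, Peg3 on the minus strand and Usp29 on the plus strand, at chr7:6730420-6730582.
Mest: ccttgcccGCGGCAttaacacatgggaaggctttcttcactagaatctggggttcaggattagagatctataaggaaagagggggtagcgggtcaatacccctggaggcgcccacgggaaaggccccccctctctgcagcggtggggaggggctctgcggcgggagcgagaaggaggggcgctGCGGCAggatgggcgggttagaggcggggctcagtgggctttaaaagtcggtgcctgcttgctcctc
Plagl1: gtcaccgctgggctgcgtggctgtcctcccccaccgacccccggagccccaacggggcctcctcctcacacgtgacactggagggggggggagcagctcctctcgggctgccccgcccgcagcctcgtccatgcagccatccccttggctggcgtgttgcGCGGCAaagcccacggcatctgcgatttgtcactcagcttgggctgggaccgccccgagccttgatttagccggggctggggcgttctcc
Meg3: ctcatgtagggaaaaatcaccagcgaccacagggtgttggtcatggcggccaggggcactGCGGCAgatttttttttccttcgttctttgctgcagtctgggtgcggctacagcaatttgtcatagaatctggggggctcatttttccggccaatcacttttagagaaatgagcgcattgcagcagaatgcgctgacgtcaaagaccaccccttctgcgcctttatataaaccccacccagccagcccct
Peg3-Usp29: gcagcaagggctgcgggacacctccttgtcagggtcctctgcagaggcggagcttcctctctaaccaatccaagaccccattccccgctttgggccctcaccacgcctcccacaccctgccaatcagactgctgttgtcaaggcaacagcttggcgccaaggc

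The hexamer occurs 2 times in the Mest stretch, with 14 CpG dinucleotides, and 1 time each in those of Plagl1, with 19 CpG, and Meg3, with 10 CpG. None lies in the Peg3-Usp29 stretch, which holds 5 CpG. RefSeq start windows of 300 bases (250 before and 50 after the start) were found for 32 members, 47 windows in all. TGCCGC or its reverse complement was in 10 of these windows, 21.28%, and in 3813 of all 32851 windows, 11.61%. All 10 member windows hold it as GCGGCA in the direction of transcription and none as TGCCGC, where over all promoters 2176 windows hold the former and 1857 the latter. By expressed copy, 5 of 25 windows of paternally expressed members, 4 of 20 of maternally expressed members and 1 of 2 of Grb10 hold it. Median CpG counts were 11 in member windows, 9 in paternal and 20 in maternal ones, and 7 in all windows. Several of these windows belong to 1 gene or overlap, so they are not independent, and methylation was not measured here.

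By the brightest probe set, which stands for each gene here, none of the 29 measured imprinted genes differed 2-fold between the heads, while 1 dimmer probe set each of Dlk1 and Meg3 did. Of the 37 genes found, 29 were measured, 27 of them at or above the floor in both heads, and 8 lay under the floor in both. Among the 29, 0 were at least 2-fold higher in MatDp(dist2) and 0 in PatDp(dist2), beside 4.43% and 3.47% of all 12483 measured genes. No test was made of this count of 29 genes against those shares. At 1.5-fold, Usp29 alone was higher in MatDp(dist2), beside 12.0% of all genes, and no member was higher in PatDp(dist2), beside 10.8%. The median absolute log2 ratio was 0.19 (1.14-fold) for the members and 0.29 (1.22-fold) for all genes, and 21 of 29 members (72.4%) lay within 1.2-fold against 46.2% of all genes.

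The small differences leaned towards PatDp(dist2) as deposited, and the lean depended on how the arrays were scaled. In the deposited signals 8 members were higher in MatDp(dist2) and 21 in PatDp(dist2), a split of 5 and 24 after median centring and of 13 and 16 after quantile normalization or subtraction of a lowess fit. Their median log2 ratio was -0.12, and that of all genes was 0.02. The 14 measured paternally expressed members had a median of -0.08, with 5 higher in MatDp(dist2) and 9 higher in PatDp(dist2), a median that turned to 0.05 under quantile normalization and to 0.11 after the lowess fit. The 14 measured maternally expressed members had a median of -0.15, with 3 and 11, and stayed below 0 under each scaling. Neither class median was thus more than 1.2-fold from equal. Of the 29 genes, 14 kept their sign under each of the 7 other settings in which they were measured, Magel2, Mkrn3, Ndn and Usp29 higher in MatDp(dist2) and 10 higher in PatDp(dist2). Mkrn3, Calcr and Zim1 among them were not measured with the floor at the 70th percentile.

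**Figure D1:**
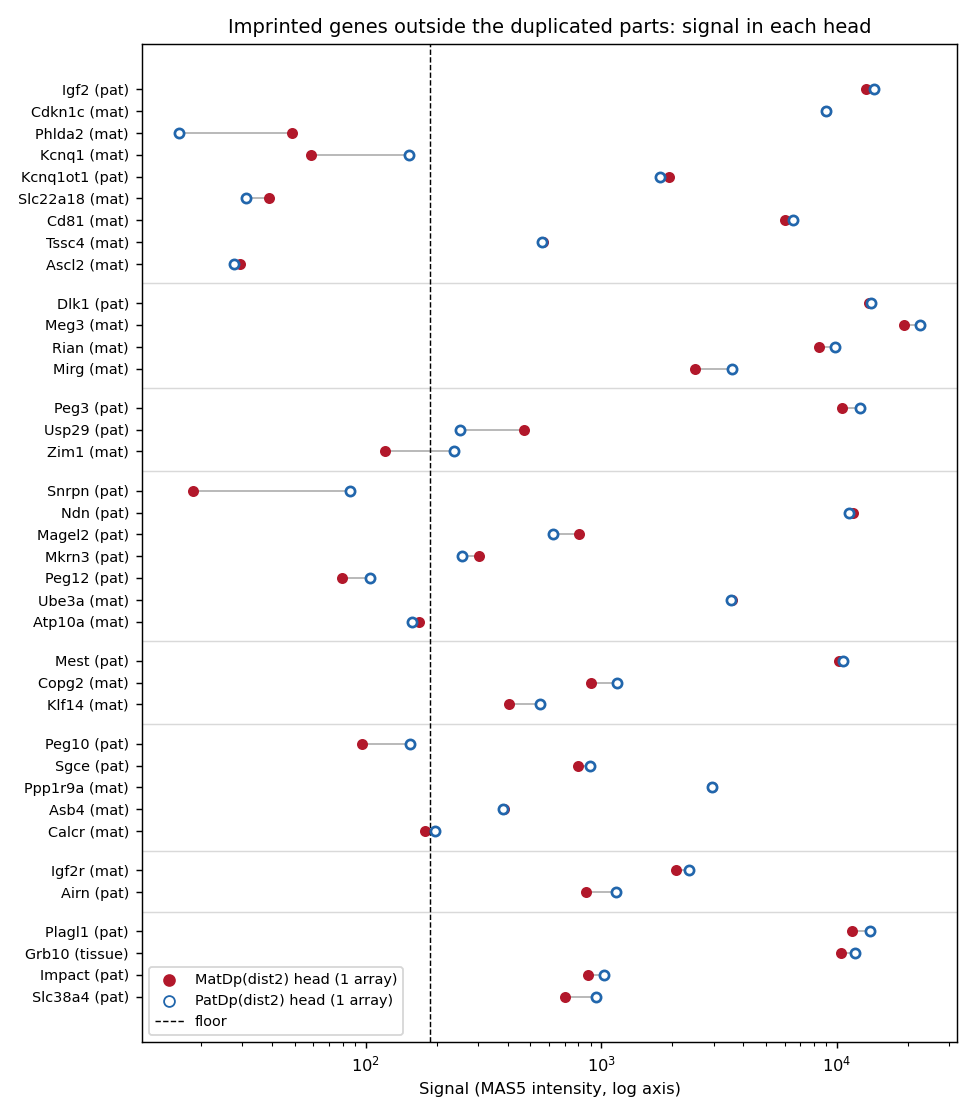
Signals of the 37 imprinted genes on the arrays, each by its brightest probe set, on a log axis; filled points are the MatDp(dist2) head, open points the PatDp(dist2) head, 1 array each, and the dashed line is the floor of 187.05. A label gives the parental copy listed as expressed, horizontal lines part the clusters, and where only an open point shows, both signals coincide, as for Cdkn1c. The 2 points of every measured gene lie within 2-fold, with Usp29 and Zim1 farthest apart.

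The Igf2-H19-Kcnq1 cluster of Chr 7 had some of the closest signals. Igf2, the paternally expressed growth factor, gave 13344 in MatDp(dist2) and 14413 in PatDp(dist2) on its brighter probe set, a log2 ratio of -0.11. Its dimmer probe set had 573 and 625, a like difference of -0.12. Cdkn1c, a maternally expressed inhibitor of cyclin-dependent kinases, had 8945 and 9008, a log2 ratio of -0.01. Both growth regulators of opposite parental origin were therefore within 1.1-fold as deposited, and both signs turned under quantile normalization and the lowess fit, with Igf2 at 0.03 and 0.09 and Cdkn1c at 0.23 and 0.17.

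Kcnq1ot1, the paternally expressed noncoding RNA that silences genes of this cluster in cis, was measured by 3 probe sets. The brightest gave 1931 in MatDp(dist2) and 1771 in PatDp(dist2). The others gave 1427 and 1528, and 658 and 729. The first was thus higher in MatDp(dist2) and the other 2 lower, all within 1.11-fold. Cd81, a tetraspanin gene at the edge of the cluster, had 6006 and 6525, and Tssc4 had 566 and 559.9. Phlda2 and Ascl2, both known for their roles in the placenta, had 48.5 and 16.1 and 29.3 and 27.6, and Slc22a18, a transporter gene, had 38.8 and 31.1, all under the floor in both heads. Kcnq1, a potassium channel gene, lay under it too, with 58.6 and 153, and is the only member to reach 2-fold at a lower floor. Together the 5 measured genes ranged from -0.12 to 0.12, with a median of -0.01 that became 0.14 under quantile normalization and 0.09 after the lowess fit.

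Igf2r and Airn of Chr 17 belong to the same growth pathway, since the maternally expressed Igf2r binds and clears IGF2 and the paternally expressed antisense RNA Airn silences the paternal Igf2r copy. Igf2r had 2081 in MatDp(dist2) and 2352 in PatDp(dist2), with 1638 and 1669.5 on its other probe set. Airn had 858 and 1156, 728 and 1085, and 556 and 541 on 3 probe sets. By the brightest probe set both were lower in MatDp(dist2) under each scaling, by 1.13-fold for Igf2r and 1.35-fold for Airn as deposited. The third Airn probe set was higher in MatDp(dist2) as deposited and after median centring, while all 3 were lower there under quantile normalization and the lowess fit. The second Igf2r probe set was lower there as deposited and turned under quantile normalization and the lowess fit. Under none of these scalings did all probe sets of both genes thus share a direction. Of 12 listed genes of IGF signalling or of proteins that bind Igf2 mRNA, 10 were measured. As deposited and under each scaling 5 were higher in each head and 0 were past 2-fold, and the deposited median was -0.08. Of all measured genes, 4.43% were at least 2-fold higher in MatDp(dist2) and 3.47% in PatDp(dist2) as deposited. Igf2bp1, an RNA-binding protein of Igf2 mRNA, had 584 and 296, 1.97-fold higher in MatDp(dist2), on a probe set whose design can match other genes too. Insr, the insulin receptor, had 894 and 1212, and Irs1, the adaptor below it, had 3592 and 4695. Igf1r, the receptor that carries the IGF2 signal, had 3601 and 3392.

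The Dlk1-Meg3 cluster of Chr 12 held the 2 member probe sets that passed 2-fold, 1 in each direction. Among the 68 measured member probe sets 1 was at least 2-fold higher in MatDp(dist2), beside 4.15% of 24229 probe sets, and 1 in PatDp(dist2), beside 2.81%. Dlk1, the paternally expressed transmembrane protein that restrains fat cell formation, had 13627 and 13985 on its brighter probe set, close to equal. Probe set 1442724_at, also assigned to Dlk1, had 496 in MatDp(dist2) and 1248 in PatDp(dist2), 2.52-fold higher in the latter. The 2 probe sets named for Dlk1 thus differ by more than any member gene does between the heads, and which transcript the dimmer one reads was not analysed here.

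Meg3, the maternally expressed noncoding RNA of the same cluster, was read by 11 probe sets, all measured. Probe set 1429256_at had 2612 in MatDp(dist2) and 1055 in PatDp(dist2), a log2 ratio of 1.31 or 2.48-fold. The other 3 Meg3 probe sets that were higher in MatDp(dist2) had 1888 and 1178, 4164 and 2989, and 1514 and 1227. These 4 had signals between 1055 and 4164. The remaining 7 were higher in PatDp(dist2) as deposited, among them the brightest, with 19339.6 and 22589.8, and others at 15066 and 17775, 11282 and 14792, and 10099 and 11391. The rest had 15283 and 15773, 2120 and 2342, and 1631 and 1632, the last close to equal. Signals of the latter 2 lay within the range of the 4 that were higher in MatDp(dist2). Under quantile normalization or the lowess fit the count became 7 higher in MatDp(dist2) and 4 lower, so no direction holds for Meg3 as a gene. Dlk1's 1442724_at and Meg3's 1429256_at stayed past 2-fold under each scaling, floor and offset tried, from -1.39 to -1.18 and from 1.23 to 1.35 on the log2 scale.

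Rian and Mirg, the maternally expressed noncoding RNAs downstream of Meg3 that host small nucleolar RNAs and microRNAs, were lower in MatDp(dist2) on each of their probe sets as deposited. For Rian the 4 probe sets had 8366 and 9787, 4342 and 5001, 899.9 and 1693, and 703 and 1196, and quantile normalization turned 2 of the 4. The dimmer pair differed most, by 1.88-fold and 1.70-fold. Mirg had 2489.8 in MatDp(dist2) and 3599 in PatDp(dist2), with 1915 and 3525 on its other probe set. Both Mirg probe sets were lower in MatDp(dist2) under each scaling, by 1.45-fold and 1.84-fold as deposited. With Dlk1 at -0.04, Meg3 at -0.22, Rian at -0.23 and Mirg at -0.53, the 4 genes were all lower in MatDp(dist2) by their brightest probe sets, but 2 of the 4 turned under quantile normalization and 1 after the lowess fit.

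By its brightest probe set Mirg differed most of the cluster, and RefSeq places 10 microRNA hairpins within its span, 3 in that of Rian and 1 in that of Meg3. A further 15 lie within the span of Rtl1, which has no probe set here, 13 on the plus strand and 2 on the minus strand. They were placed by position alone, so Rtl1 is not taken as their host. Their mature products are not read by these arrays, so the host signals above say nothing of their levels. The sequences below, with the seed (bases 2 to 8) in capitals, are examples from Mirg, Rian and Meg3. They begin with the 2 Mirg microRNAs that share the seed GGUUGCC with each other and with no other listed mouse microRNA.
mmu-miR-453: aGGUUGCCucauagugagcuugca
mmu-miR-496a-5p: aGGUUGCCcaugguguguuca
mmu-miR-410-3p: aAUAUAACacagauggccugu
mmu-miR-370-3p: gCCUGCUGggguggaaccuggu
mmu-miR-770-3p: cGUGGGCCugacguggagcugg
The third is also from Mirg, the fourth from Rian and the fifth from Meg3. All 5 lie on the plus strand of Chr 12, the strand of their hosts.

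**Figure D2:**
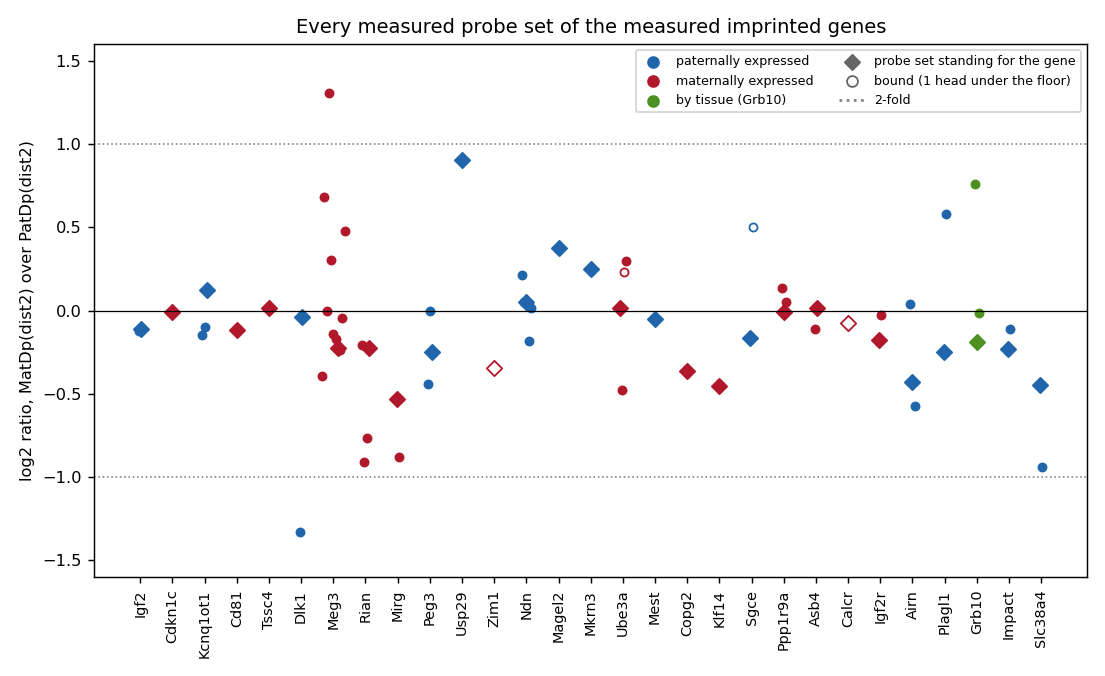
Log2 ratio, MatDp(dist2) over PatDp(dist2), of each of the 68 measured probe sets of the 29 measured imprinted genes; diamonds are the brightest probe set of a gene, open symbols are bounds with 1 head under the floor, and dotted lines mark 2-fold. Blue is paternally expressed, red maternally expressed and green Grb10. Only 1 Meg3 and 1 Dlk1 probe set lie outside the dotted lines, and neither is a diamond.

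The Peg3 cluster of Chr 7 held Usp29, the member gene with the largest ratio at the floor used here. Usp29, a paternally expressed gene for a ubiquitin-specific protease, had 471 in MatDp(dist2) and 252 in PatDp(dist2) on its only measured probe set, 1.87-fold higher in the former. Peg3, a paternally expressed zinc finger gene, had 10549.5 and 12548, 4691 and 6376, and 2049.9 and 2049.7. Its brightest probe set was thus 1.19-fold lower in MatDp(dist2), and stayed lower under each setting, between -0.29 and -0.04. Usp29 and Peg3 start from the 163 bases printed above and share the expressed parental copy, yet their ratios had opposite signs under each setting. The Usp29 ratio fell to 0.02 with a floor at the 70th percentile, since 252 lies under that floor and 471 just above it. Zim1, a maternally expressed zinc finger gene of the cluster, had 121 and 238, at least 1.27-fold higher in PatDp(dist2). With the floor at the 30th percentile its log2 ratio was -0.97, larger in size than that of Usp29, as was that of Kcnq1 at -1.03.

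The Snrpn-Ube3a cluster of Chr 7, linked to Prader-Willi and Angelman syndromes in humans, was the only cluster with each measured gene higher in MatDp(dist2), except that Ube3a turned after median centring. Ndn, a paternally expressed MAGE family gene of neurons, had 11655 and 11235, and 10097 and 8725, on 2 of its 5 measured probe sets. In the deposited signals 4 of the 5 were higher in MatDp(dist2), 3 after median centring, 5 under quantile normalization and 4 after the lowess fit. The deposited log2 ratios of the 5 ranged from -0.18, at 7261 and 8246, to 0.21. Magel2, a MAGE family gene expressed in the hypothalamus, had 808 and 624, 1.29-fold higher in MatDp(dist2). Mkrn3, a ring finger gene that restrains the onset of puberty, had 303 and 255, a 1.19-fold difference. Ndn and Magel2 stayed higher in MatDp(dist2) under each setting, as did Mkrn3 except at the highest floor, where it was not measured, and none of the 3 reached 1.5-fold.

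Ube3a, a ubiquitin ligase gene that is expressed from the maternal copy in neurons and from both copies elsewhere, had 3583 in MatDp(dist2) and 3552 in PatDp(dist2). Its dimmer probe sets had 831 and 676, 297 and 414, and 220 and 166, in both directions. Snrpn had 18.5 and 86.0 on its only single-symbol probe set, Peg12 79.5 and 105, and Atp10a 168 and 158, each under the floor in both heads. A further 6 probe sets name Snrpn together with other genes and were not used, since no value on them belongs to 1 gene. Neuron markers were for the most part higher in MatDp(dist2), where 4.43% of all measured genes were at least 2-fold higher. Of the 10 listed, 9 were higher in MatDp(dist2) and 7 at least 2-fold (Tubb3, Dcx, Elavl3, Map2, Elavl4, Rbfox3 and Syt1), with a median log2 ratio of 1.18 against 0.15 for the 4 cluster genes, and only Nefl lower, at 3037 and 4339. Their part in the values of Ndn, Magel2, Mkrn3 and Ube3a was not tested.

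On Chr 6, Mest, a paternally expressed gene of mesoderm for a protein with a hydrolase fold, had 10217 in MatDp(dist2) and 10575 in PatDp(dist2), 1.04-fold apart with the sign turned under quantile normalization and the lowess fit. Its maternally expressed neighbours Copg2, a coatomer subunit gene, and Klf14, a transcription factor gene, differed more. Copg2 had 908 and 1170.4, and Klf14 had 404 and 552. They were 1.29-fold and 1.37-fold higher in PatDp(dist2), and stayed so under each setting. RefSeq places 1 microRNA hairpin within Mest, and its 5′ arm is printed with the seed in capitals.
mmu-miR-335-5p: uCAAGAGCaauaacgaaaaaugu

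Also on Chr 6, the measured genes of the Peg10-Sgce cluster were nearly equal between the heads. Sgce, the paternally expressed epsilon-sarcoglycan gene, had 797 and 895, while its dimmer probe set had 265 and 174, at least 1.42-fold higher in MatDp(dist2). Ppp1r9a, the maternally expressed neurabin gene, had 2947 in MatDp(dist2) and 2964 in PatDp(dist2). Its dimmer probe sets had 2487 and 2268, and 696 and 670.4. Asb4, a SOCS box gene, had 388 and 384, and 197 and 213. Calcr, the calcitonin receptor gene, had 178 and 197, at least 1.05-fold higher in PatDp(dist2) and close to the floor. Peg10, a gene derived from a retrotransposon and needed in the placenta, lay under the floor, with 96.4 and 155. The 4 measured genes ranged from -0.17 to 0.01, with a median of -0.04.

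The imprinted genes without a cluster of the list were each lower in MatDp(dist2) as deposited, with a median of -0.24. Grb10 reached 0.00 after the lowess fit, and with means over probe sets Grb10 turned to 0.18 and Plagl1 to 0.16. Plagl1, a paternally expressed zinc finger gene of Chr 10 that acts on many other imprinted genes, had 11605 and 13817. Its dimmer probe set had 469 and 314, 1.49-fold higher in MatDp(dist2). Grb10 of Chr 11, an adaptor that dampens insulin and IGF receptors and is expressed from the paternal copy in neurons and the maternal copy in most other tissues, had 10402 and 11874. Its dimmer probe sets had 318 and 188, 1.69-fold higher in MatDp(dist2), and 377 and 380.0. Whether its probe sets read the neuronal or the other transcript was not analysed here. Impact of Chr 18, an inhibitor of the GCN2 kinase, had 875 and 1026, and 332 and 358. Slc38a4 of Chr 15, a paternally expressed amino acid transporter gene, had 700.2 and 953, and 557 and 1067. Both Slc38a4 probe sets were higher in PatDp(dist2) under each scaling, by 1.36-fold and 1.92-fold as deposited, and the latter reached 2-fold under quantile normalization.

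Where a gene had several measured probe sets, these often differed in direction, for Peg3, Asb4 and Ppp1r9a through 1 probe set close to equal. Of 18 such genes, 7 (Igf2, Igf2r, Dlk1, Rian, Mirg, Impact and Slc38a4) had all probe sets higher in PatDp(dist2) as deposited, none had all higher in MatDp(dist2), and 11 had both directions. Quantile normalization left Impact, Mirg and Slc38a4 of the 7 without a probe set that turned. Over the 68 measured probe sets 24 were higher in MatDp(dist2) and 44 in PatDp(dist2), with 33 and 35 under quantile normalization and 31 and 37 after the lowess fit. The brightest Dlk1, Meg3, Ndn and Plagl1 probe sets carry the suffix _s_at or _x_at, of designs whose probes can match more than 1 transcript, also of other genes. Those of Grb10, Tssc4, Copg2 and Sgce carry _a_at, a design for several transcripts of 1 gene.

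Many of the imprinted genes were among the brightest on the arrays, where signals as a whole were lower in MatDp(dist2). Of the 29, 11 had a mean log2 signal of at least 12, among 759 genes of that class. These 11 had a median log2 ratio of -0.12 and ranged from -0.25 to 0.05, and the 759 had a median of -0.21, with 8.30% of them past 2-fold. At mean log2 signals of 8 to 9 the median of 2940 genes was 0.12, and the 4 members there (Usp29, Klf14, Asb4 and Mkrn3) ranged from -0.45 to 0.90. The difference between the array-wide medians of these classes is the part that quantile normalization and the lowess fit remove.

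**Figure D3:**
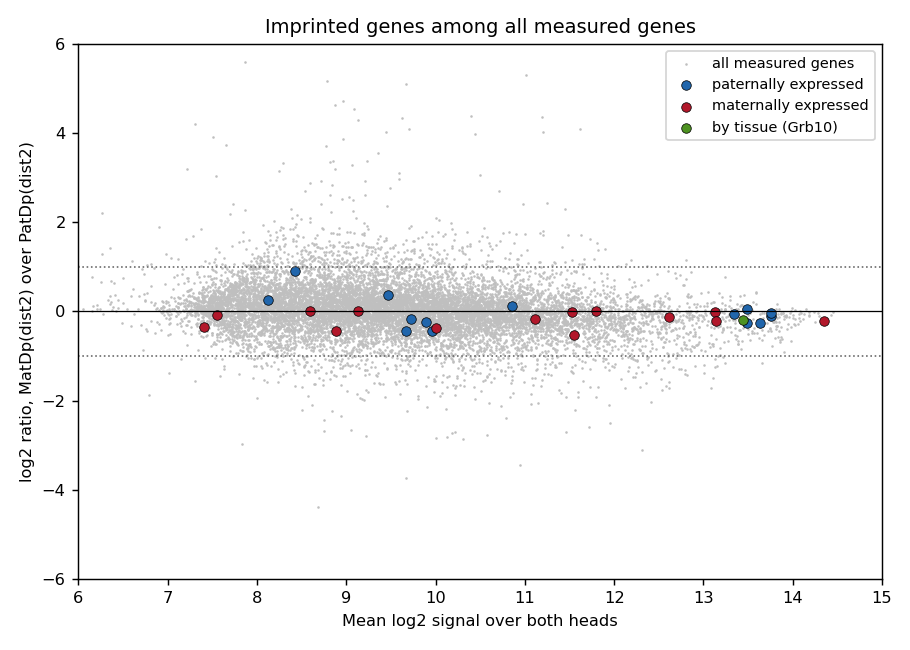
Log2 ratio, MatDp(dist2) over PatDp(dist2), against the mean log2 signal of both heads for all 12483 measured genes (grey) and the 29 measured imprinted genes (coloured by expressed copy); dotted lines mark 2-fold. All 29 lie between the dotted lines, and the 11 at a mean log2 signal of 12 or more lie between -0.25 and 0.05.

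Listed genes that flank the clusters are set beside the members, and whether some of them are imprinted too was not examined here. Of 77 listed, 69 were found and 47 measured, and 19 were higher in MatDp(dist2) and 28 in PatDp(dist2) as deposited. Their median log2 ratio was -0.15 and their median absolute log2 ratio 0.34, against -0.12 and 0.19 for the member genes. None was at least 2-fold higher in MatDp(dist2), beside 4.43% of all measured genes, and 4 of the 47 were in PatDp(dist2), beside 3.47%. No test was made of these counts. Pdk4, a kinase gene of the fasting response beside Peg10-Sgce, had 583 in MatDp(dist2) and 3968 in PatDp(dist2). Pon3, a paraoxonase gene of the same stretch, had 254 and 558. Sod2, the mitochondrial superoxide dismutase gene near Igf2r, had 4509 and 11244. Cobl, an actin nucleator gene next to Grb10, had 690 and 1878.

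Pdk4, Pon3, Sod2 and Cobl were named because they passed 2-fold, which no member did by its brightest probe set. Their smaller neighbouring ratios follow from that choice. Peg10-Sgce members lay between -0.17 and 0.01. Igf2r was at -0.18 and Airn at -0.43, with Sod2 at -1.32, and Grb10 at -0.19, with Cobl at -1.45. The largest ratios towards MatDp(dist2) in these lists belonged to Dync1i1, a dynein chain gene of neurons, with 1139 and 608, and to Dhcr7, an enzyme of cholesterol synthesis, with 869 and 535. Gabra5, a GABA receptor gene beside Ube3a, had 490 and 332. Around Igf2-H19-Kcnq1, Tnnt3, a muscle troponin gene, was at -0.58 on the log2 scale and Cars, a tRNA synthetase gene, at 0.49. Around Dlk1-Meg3 the largest ratios were -0.41 for Slc25a29, 0.38 for Wars and -0.30 for Ppp2r5c. Clcn4, the only measured gene beside Peg3, was at 0.14, and beside Mest stood Mkln1 at -0.38 and Cep41 at 0.02. Beside Ube3a, Nipa1 was at 0.38 and Herc2 at 0.17, and beside Igf2r, Mrpl18 was at -0.34 and Tcp1 at -0.25. Near the single genes, Ddc was at -0.65 and Slc38a1, a paralog near Slc38a4, at 0.56. All of these flanking genes but Pdk4, Pon3, Sod2 and Cobl lay within 2-fold. Per cluster, medians of flanking genes were 0.17 for Igf2-H19-Kcnq1 (12 genes), -0.08 for Dlk1-Meg3 (5), 0.17 for Snrpn-Ube3a (5), -0.46 for Peg10-Sgce (8), -0.30 for Igf2r (4) and -0.21 for the single genes (10), and the Dlk1-Meg3 value turned to 0.04 under quantile normalization and the lowess fit.

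**Figure D4:**
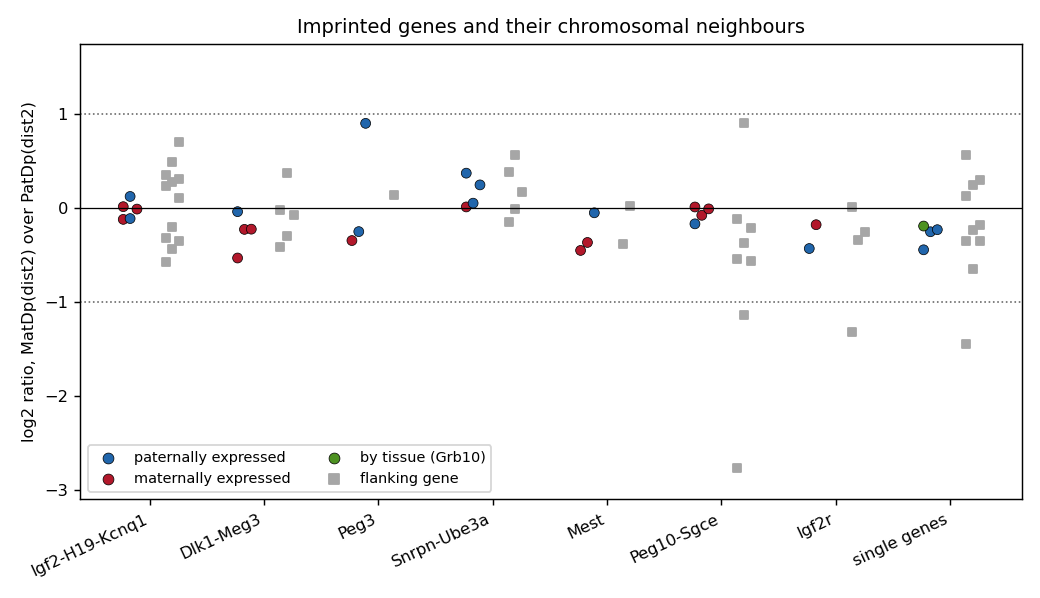
Log2 ratio, MatDp(dist2) over PatDp(dist2), of the 29 measured imprinted genes (circles, coloured by expressed copy) and of the 47 measured flanking genes (grey squares), by cluster; dotted lines mark 2-fold. The 4 values under the lower line are flanking genes, Pdk4, Cobl, Sod2 and Pon3.

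The factors that set and keep imprints were, for the most part, slightly higher in MatDp(dist2). Of 25 listed genes 22 were measured, 18 of them higher in MatDp(dist2) and 4 lower as deposited, 16 and 6 after median centring, with a median log2 ratio of 0.22 and none past 2-fold. Over all 12483 measured genes, 6485 were higher in MatDp(dist2) and 5997 in PatDp(dist2) as deposited. At least 2-fold higher were 4.43% and 3.47% of them. Dnmt1, the maintenance DNA methyltransferase, had 1779 and 1219, 1.46-fold. Mbd3, a subunit of a chromatin remodelling complex, had 677 and 504, and Dnmt3a, a de novo methyltransferase, had 1863 and 1420. Zfp57, whose product binds the hexamer above, had 237 in MatDp(dist2) and 94.8 in PatDp(dist2), at least 1.27-fold. Trim28, its partner, had 6532 and 6028, and Ctcf, the insulator protein that binds the Igf2-H19 control region, had 1301 and 1140. The 4 lower in MatDp(dist2) as deposited were Dnmt3b, with 273 and 325.5, Eed, Suz12 and Yy1. The neuron markers were for the most part higher in MatDp(dist2), and their part in the values of these factors was not tested.

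By their brightest probe sets the imprinted genes lay between -0.53 and 0.90, and lens, epidermis, fat and neuron markers had medians farther from 0. Muscle markers, imprint factors and IGF signalling genes lay within 2-fold, as the imprinted genes did. These lists were chosen with earlier results of these data known, so the contrast is a description only. For the counts below, 4.43% of all measured genes were at least 2-fold higher in MatDp(dist2) and 3.47% in PatDp(dist2). Fat markers, 6 of 6 measured, were all lower in MatDp(dist2) under each scaling, with a median of -1.46, and 5 (Adipoq, Cidea, Ucp1, Lpl and, as a bound, Pparg) were past 2-fold as deposited. Muscle markers were all lower there as deposited, 10 of 10, with a median of -0.35 (Tnni2, Ttn and Des the lowest), and 2 turned under quantile normalization and 3 after the lowess fit. Igf2, Mest, Meg3 and Dlk1 are known to be high in fetal muscle and mesenchyme. Endothelial markers were lower in 5 of 6 under each scaling, with a median of -0.53 and Tek past 2-fold at 568 and 1195, followed by Kdr and Tie1.

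Epidermis markers were higher in MatDp(dist2) in 6 of 6, with Lor, Krt10, Krt1 and, as a bound, Flg past 2-fold and a median of 4.06. Lens markers were higher in 6 of 6 as deposited, with Cryba1, Crybb1, Crygb and Cryaa past 2-fold as bounds and a median of 4.42. Cartilage and bone markers had a median of 0.37 with 5 of 7 higher as deposited and all measured ones higher under quantile normalization and the lowess fit, led by Col2a1 at 2661 and 1159 and then, as a bound, Cnmd, both past 2-fold, and Col9a1. Of the pituitary list, Gh had 2146 and 519 and Pomc 368 and 683, and the other 4 found lay under the floor. Of the liver list Alb, Afp, Apoa1 and Ahsg lay under the floor in both heads and only Ttr, which the choroid plexus also makes, was measured, at 12952 and 327. Of 6 listed placental markers 2 were found, Psg17 and Tpbpa, and both lay under the floor in both heads. So did the members Phlda2 and Peg10, on 1 probe set each, and Ascl2. The part of any of these tissue differences in the imprinted gene values was not tested.

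**Figure D5:**
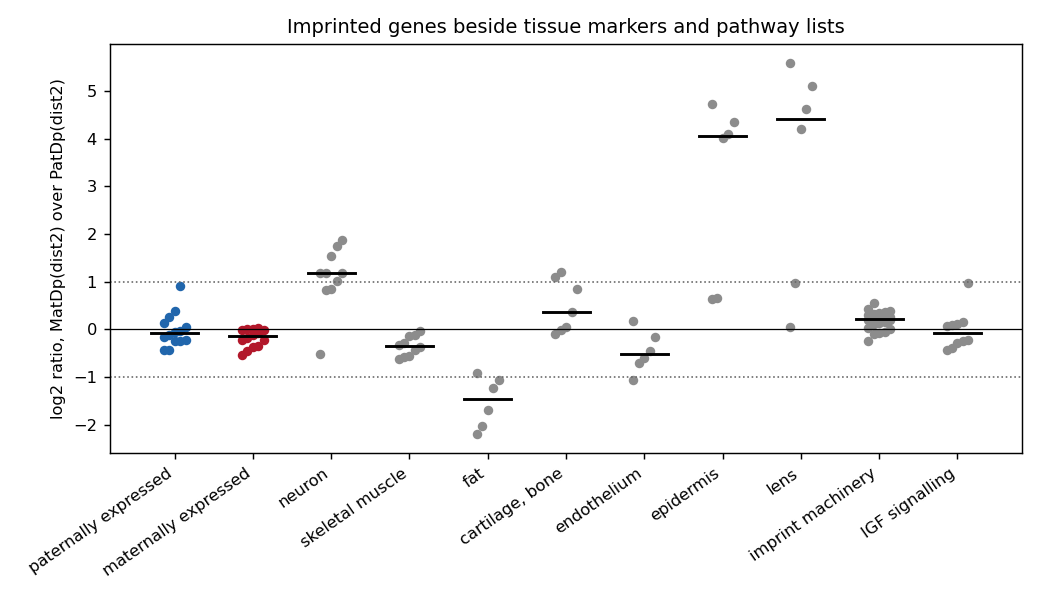
Log2 ratio, MatDp(dist2) over PatDp(dist2), of each measured gene of the paternally and maternally expressed imprinted genes, of tissue marker lists and of 2 pathway lists; bars are list medians, dotted lines mark 2-fold, and values with 1 head under the floor are bounds. The imprinted genes lie between -0.53 and 0.90, the fat markers below -0.9 and the highest epidermis and lens markers above 4.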

How the data were processed

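Total RNA of newborn whole head was measured on 1 Affymetrix array for each of 2 genotypes. The deposited values are an intensity per probe set on a linear scale, made by the authors with MAS5 and GCOS per the submitters' processing notes (versions not given). The mean after trimming 2% at each end was 500.002 on each array, so both carry a common scaling. MAS5 signals are least precise when low, and detection calls were not used here. Of 45101 probe sets, 64 were controls, 34945 had 1 gene symbol in the platform annotation, 932 had several and 9160 were not listed. RefSeq IDs matched 34741 probe sets.

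The brightest probe set (mean log2 signal) stands for a gene. The floor of 187.05 is the median of the 50th percentiles of the arrays. Genes are called at 2-fold. The named genes are all members, with every measured probe set given or summarised by range, and from each other list those at least 2-fold apart and the 3 with the largest absolute log2 ratio. Trim28, Ctcf, Zfp57, Igf1r, Dnmt3b, Eed, Suz12 and Yy1 were added after their values were seen. Members and lists (clusters, flanking genes, imprint factors, IGF signalling, 10 marker lists) were chosen with earlier results of these data known. Alternatives were median centring, quantile normalization, a lowess fit (span 0.3), an offset of 100, floors at the 30th and 70th percentile, means over probe sets, thresholds of 1.5-fold and 3-fold, and Grb10 as maternally expressed. Computation used Python 3.11.15, pandas 2.3.3, numpy 2.4.6 and statsmodels 0.14.6, tested on simulated data.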

Additional observations from a re-analysis of the deposited data

How the results depend on the processing

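No paired analysis was possible because each genotype has 1 array. No member was at least 2-fold apart under any of the 3 other scalings, the offset, the floor at the 70th percentile, means over probe sets or the 3-fold threshold. The count was 1 with the floor at the 30th percentile (Kcnq1, at -1.03 on the log2 scale) and 1 at the 1.5-fold threshold (Usp29). With no replicates, a median is taken as moved when it shifts by at least 0.1. The paternally expressed median of -0.08 moved to 0.0496 under quantile normalization and to 0.11 after the lowess fit. The maternally expressed median stayed between -0.18 and -0.09, also with Grb10 counted there, and the median of all members between -0.17 and -0.04. The median of all genes stayed between -0.02 and 0.06. Of 199 values of single genes, 53 moved by at least 0.1, and 15 of 29 genes changed sign in at least 1 setting. With means over probe sets, Plagl1 changed from -0.25 to 0.16, Meg3 from -0.22 to 0.14, Grb10 from -0.19 to 0.18 and Sgce from -0.17 to 0.17. Asb4, Cdkn1c, Tssc4, Ube3a and Ppp1r9a changed from ratios within 0.02 of 0. Asb4, Calcr, Mkrn3 and Zim1 were not measured with the floor at the 70th percentile. Signals near the floor limit Usp29, Zim1, Calcr and Mkrn3.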
